A study of Mus musculus with 3 samples.

Results

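The aminoacyl-tRNA synthetases of the mouse were examined in activated macrophages. Members were the genes with at least 1 protein-coding transcript whose symbol is a capital letter followed by ars, alone or with a final 1 or 2, together with Eprs, Farsa, Farsb and Tarsl2. This gave 38 of 55536 annotated genes, of which 22028 are protein-coding. From textbook knowledge, 21 of the 38 encode cytosolic enzymes and 17 encode mitochondrial enzymes.

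Each synthetase joins 1 kind of amino acid to its tRNAs, and the ribosome then uses those charged tRNAs to build protein. Mammalian cells keep separate nuclear genes for most of the cytosolic and mitochondrial enzymes, while Gars and Kars each encode both forms and were counted here as cytosolic. The enzymes fall into class I and class II by the fold of their catalytic domain, and several cytosolic ones sit together in the multi-synthetase complex. Cytosolic synthetase genes are known targets of ATF4, the transcription factor of the amino acid response, and Wars, the tryptophan enzyme, is known for induction by interferon.

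Total RNA, depleted of ribosomal RNA, was sequenced from the cytosolic fraction of macrophages derived from bone marrow, primary cells of the inbred mouse strain C57BL/6J. All cells received Lipid A, the lipopolysaccharide part that activates TLR4, at 100 ng/ml for 12 h, had it washed out for 12 h, and were stimulated again at 100 ng/ml for 20 min. The series is 1 group of 3 libraries, numbered as biological replicates 1, 2 and 3 but carrying a single donor identifier, with age and sex not collected. Untreated, singly stimulated and nuclear samples were not analysed here. The values are therefore levels rather than responses, and each SD is a spread between libraries that may be partly technical.

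Counts on annotated genes totalled 32055937, 43616634 and 47864978 in replicates 1, 2 and 3, and the synthetase genes took 0.165%, 0.182% and 0.167% of them. All 10 macrophage markers were at 1 TPM or more in every library. TPM is transcript abundance per length, scaled to a fixed sum in each library. Of the markers of other cells, 2 of 7 neutrophil, 1 of 8 lymphoid and 1 of 6 stromal and endothelial genes were at that level, with Ly6g, Trac and Pdgfra at 0 TPM in every library. The 4 nuclear RNAs, led by Malat1, summed to 651, 169 and 693 TPM, so replicate 2 held the least of them. Protein-coding genes took 32.7%, 27.4% and 27.8% of TPM. The part of these library differences in the results below was not tested. In a bulk sample, fewer cells of a type and less RNA per cell cannot be told apart.

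Transcripts of the cytosolic enzymes were more abundant than those of the mitochondrial enzymes in every library. The median cytosolic gene stood at 17.5, 17.4 and 16.7 TPM in replicates 1, 2 and 3, or 17.2 ± 0.460 TPM (SD, n = 3). The median mitochondrial gene stood at 2.35, 2.21 and 2.00 TPM, or 2.19 ± 0.176 TPM (SD, n = 3). The 2 sets of library values do not overlap. On the log2(TPM + 1) scale the medians differed by 2.47, 2.52 and 2.56, a mean of 2.51 ± 0.05 (SD, n = 3). The difference was positive in 3 of 3 libraries, and the exact two-sided sign-flip permutation test gave p = 0.25, the smallest p that 3 libraries allow. Summed over genes, the cytosolic enzymes held 379, 348 and 331 TPM and the mitochondrial enzymes 47.4, 46.1 and 46.1 TPM.

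**Figure D1:**
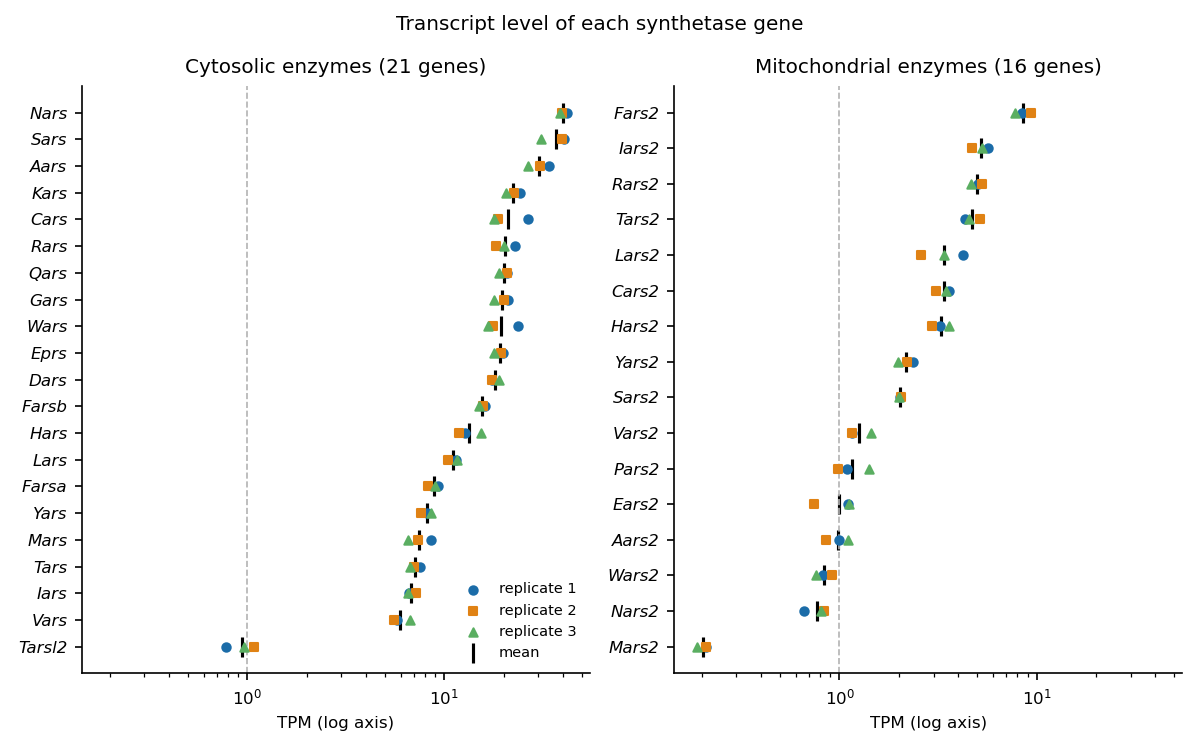
TPM of 37 synthetase genes on a log axis, cytosolic genes on the left and mitochondrial genes on the right, with 1 symbol per library, a black tick at the mean and a dashed line at 1 TPM. All cytosolic genes but Tarsl2 lie above the line, and Fars2 is the highest mitochondrial gene drawn at a mean of 8.54 TPM, a rank it does not hold on protein_coding transcripts or in the second quantification.

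Of the 21 cytosolic genes, 20 were at 1 TPM or more in every library, as were 11 of the 17 mitochondrial genes. Over all protein-coding genes that share was 41.3%. The gap between compartments depended on the scale: with TPM rescaled over protein-coding genes the counts were 21 and 16 (46.6% of protein-coding genes), and in the second quantification 20 and 8 (36.2%). At 5 TPM the counts were 20 cytosolic genes and 1 mitochondrial gene, Fars2. No member was without counts, and the lowest count was 92, of Pars2 in replicate 1.

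Among the cytosolic enzymes, Nars, the asparagine enzyme (mm10 chromosome 18, 64499647 to 64516652, minus strand), was highest at 41.8, 39.7 and 38.6 TPM. Sars, the serine enzyme (chromosome 3, 108424865 to 108445209, minus strand), followed at 40.3, 39.7 and 30.8 TPM. Aars, the alanine enzyme (chromosome 8, 111033144 to 111057664, plus strand), was at 33.9, 30.7 and 26.6 TPM. Kars, which serves lysine in both compartments, was at 24.1, 22.6 and 20.5 TPM. The ranges of Nars and Sars overlap, those of Sars and Aars overlap, and those of Aars and Kars do not.

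Next came Cars at a mean of 21.1 ± 4.86 TPM (SD, n = 3), then Rars, Qars, Gars, Wars and Eprs, down to 19.1 ± 1.05 for Eprs. Gars, which serves glycine in both compartments, had 21.1, 20.0 and 17.8 TPM. Wars had 23.6, 17.6 and 16.7 TPM, with replicate 1 above the others. Eprs, a single protein that charges both glutamate and proline tRNAs, had 19.8, 19.5 and 17.9 TPM. The ranges of these 3 genes overlap, so their order is not separated from the spread.

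The phenylalanine enzyme of the cytosol is built from 2 kinds of subunit. Farsb, the beta subunit, had 16.1, 15.8 and 15.0 TPM, and Farsa, the alpha subunit, had 9.29, 8.27 and 8.97 TPM. Farsa was thus below Farsb in every library, and their ranges do not overlap.

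At the low end of the cytosolic set, Vars, the valine enzyme, had 5.75, 5.55 and 6.67 TPM. Tarsl2, a second threonyl-tRNA synthetase of the cytosol, had 0.78, 1.08 and 0.96 TPM, below every other cytosolic member in each library. The other threonine gene, Tars, had a mean of 7.08 ± 0.437 TPM (SD, n = 3).

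Fars2, the mitochondrial phenylalanine enzyme (chromosome 13, 36117412 to 36726280, plus strand), had the highest gene-level TPM of its compartment, with 8.41, 9.39 and 7.81 TPM. Iars2, for isoleucine, had 5.64, 4.73 and 5.31 TPM. Rars2, for arginine, had 5.04, 5.26 and 4.64 TPM, and Tars2, for threonine, had 4.34, 5.18 and 4.56 TPM. The ranges of the last 3 overlap, while Fars2 lies above all of them. That rank turns on other measures. On protein_coding transcripts alone Fars2 averaged 3.79 TPM, below Iars2 at 5.13, Rars2 at 4.79 and Tars2 at 4.23. In the second quantification Lars2 stood above Fars2, at 51.0 against 25.4 TPM rescaled over protein-coding genes. The lowest were Nars2, for asparagine, at 0.66, 0.83 and 0.81 TPM, and Mars2, for methionine, at 0.21, 0.21 and 0.19 TPM. Mars2 was the lowest member in every library in TPM, which divides by length, and its transcript Mars2-201 is 11294 nt long. In counts not divided by length Mars2 was not the lowest. It held 116, 190 and 175 counts, above Nars2 at 94, 152 and 169 in every library.

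Neither the structural class nor the complex separated members as far as the compartment did. The median of the 10 cytosolic class I genes lay below that of the 11 class II genes by a log2 difference of -0.29 ± 0.08 (SD, n = 3), negative in 3 of 3 libraries. In mitochondria the same difference was -0.06 ± 0.09 and changed sign between libraries. Eprs was counted in class I only, although it also charges proline tRNA, whose mitochondrial enzyme Pars2 is in class II. The cytosolic class difference without Eprs was not computed. The 8 enzymes of the multi-synthetase complex lay above the other 13 cytosolic genes by 0.21 ± 0.04, in 3 of 3 libraries. The exact two-sided sign-flip permutation p was 0.25 for the cytosolic classes and for the complex, and 0.50 for the mitochondrial classes.

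The compartments were then compared amino acid by amino acid, in 18 pairs of a cytosolic and a mitochondrial gene. Eprs entered for glutamate and for proline, and both phenylalanine subunits were set against Fars2. In 17 of 18 pairs the cytosolic gene was higher in every library, and in none was the mitochondrial gene. Pairs that share a gene are not independent.

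The largest difference was for asparagine, where Nars exceeded Nars2 by 4.69, 4.48 and 4.45 on the log2(TPM + 1) scale, a mean of 4.54 ± 0.13 (SD, n = 3). For alanine, Aars exceeded Aars2 by 3.98 ± 0.23. For serine, Sars exceeded Sars2 by 3.64 ± 0.20. In TPM, asparagine thus joins the highest cytosolic gene to the second-lowest mitochondrial one.

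The smallest difference was for phenylalanine, where Farsa minus Fars2 was 0.13, -0.16 and 0.18, a mean of 0.05 ± 0.19, smaller than its own spread. This pair was not the smallest on other scales, with 0.98 in counts not divided by length and 0.93 on protein_coding transcripts alone, where Iars minus Iars2 was 0.13 and 0.33. Farsb against Fars2 gave 0.80 ± 0.09, positive in every library. For isoleucine, Iars exceeded Iars2 by 0.20, 0.52 and 0.25, a mean of 0.32 ± 0.17. For threonine, Tars exceeded Tars2 by 0.51 ± 0.15. The remaining pairs lay between 1.48 for leucine and 3.45 for tryptophan. The leucine pair, Lars minus Lars2, turned to -0.40 in a second quantification of the same reads.

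**Figure D2:**
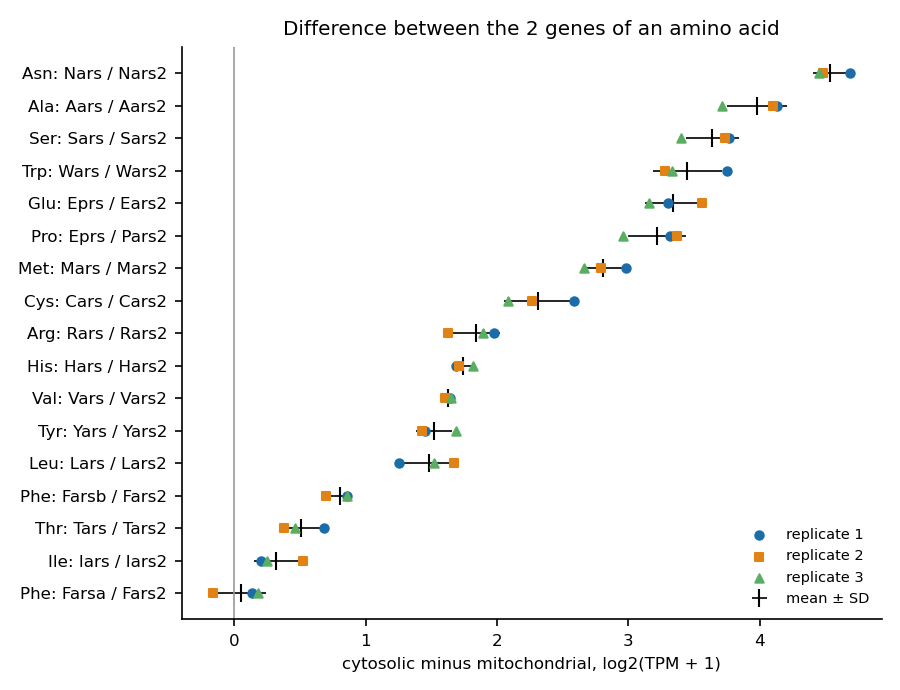
Difference in log2(TPM + 1) between the cytosolic and the mitochondrial gene of an amino acid, with 1 symbol per library and a black tick and bar for the mean ± SD of 3 libraries. All pairs drawn but Farsa and Fars2 lie to the right of 0 in every library, and asparagine is farthest at 4.54.

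The level of a gene need not all lie on transcripts that encode the enzyme. The annotation gives the 38 genes 303 transcripts, of which 101 are protein_coding, 115 retained_intron, 48 nonsense_mediated_decay (predicted to be degraded during translation) and 39 processed_transcript (no open reading frame assigned). At 90% or more of TPM on protein_coding transcripts stood 25 members, and 4 lay under 50% on the mean of 3 libraries. Over protein-coding genes at a mean of 1 TPM or more, 72.0% and 4.96% did so. The median share was 94.5% for members and 97.5% for those genes.

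The members under 50% included Qars, for glutamine, and 2 mitochondrial genes, Cars2 and Fars2, for cysteine and phenylalanine. Qars had 42.1%, 32.6% and 34.4% of its TPM on protein_coding transcripts. Its leading transcript was Qars-231, of type nonsense_mediated_decay and 2398 nt long, with 34.8%, 44.5% and 53.4%. Qars is thus among the more abundant synthetase genes, yet under 50% of that abundance was assigned to protein_coding transcripts in each library.

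Cars2 had 32.6%, 44.8% and 47.4% on protein_coding transcripts, so it too was under 50% in every library. Fars2 had 44.9%, 39.0% and 50.1%, and its leading transcript was Fars2-206, a processed_transcript of 506 nt, with 34.9%, 45.2% and 39.4%. Counted on protein_coding transcripts alone, the cytosolic gene was higher in every library in all 18 pairs, an alternative added after the data were seen.

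2 further cytosolic genes carried a large nonsense_mediated_decay transcript. In Cars, for cysteine, Cars-211 of 558 nt had 36.3%, 34.0% and 28.4% of TPM. In Farsb, Farsb-204 had 20.5%, 17.7% and 17.7%. These shares are estimates, since short reads common to several transcripts are divided between them by a model.

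**Figure D3:**
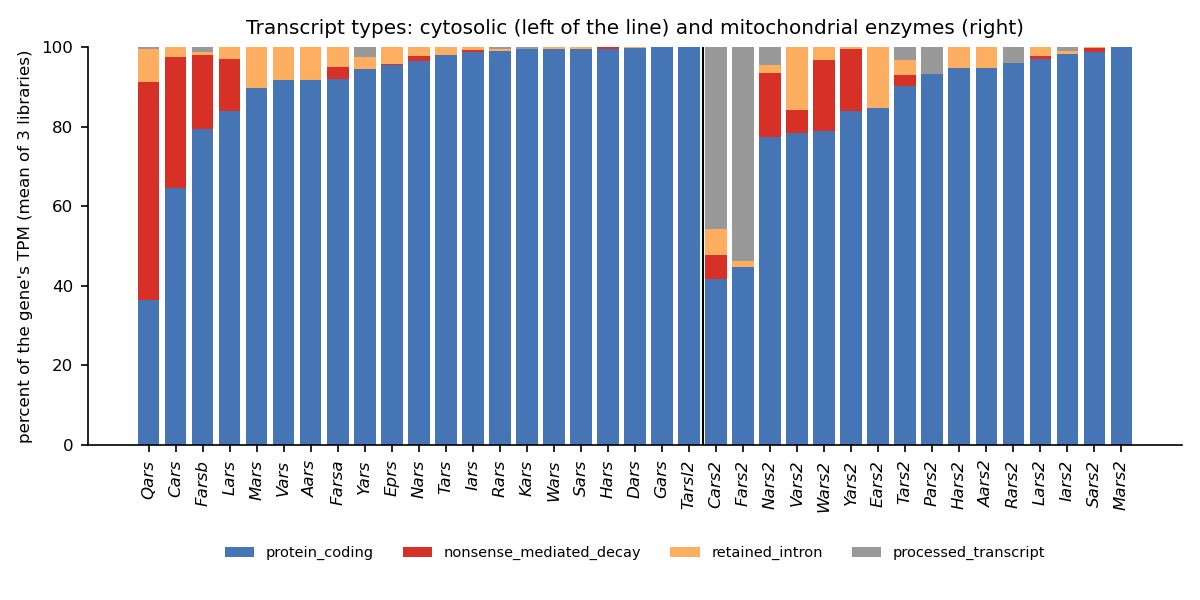
Percent of the TPM of 37 synthetase genes on each annotated transcript type, as stacked bars of the mean over 3 libraries, with cytosolic genes left of the black line and mitochondrial genes right of it. Qars at 36.4% has the smallest share on protein_coding transcripts among the cytosolic genes, and Cars2 stands at 41.6%.

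Several members share exon sequence with a neighbour, and since the strand setting is not given in the sources used here, reads from such stretches may be assigned to either gene. Iars2 shares 2034 bases, 22.9% of its exon sequence, with Rab3gap2 on the opposite strand, which had 16.8, 14.7 and 14.2 TPM. Cars2 shares 422 bases, 5.83% of its exon sequence, with Naxd on the opposite strand, which had 12.1, 12.1 and 11.4 TPM. Hars and Hars2 share 195 bases on opposite strands. Mars, the methionine enzyme, shares 68 bases with Ddit3, an ATF4 target on the opposite strand at 121, 122 and 74.8 TPM. The levels of these members are uncertain to that extent.

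10 members, 6 of them mitochondrial, had the start of another protein-coding gene on the opposite strand within 1000 bases. Over all protein-coding genes that share was 10.8%. In all 10 cases the TPM ranges of member and neighbour did not overlap, the member being higher in some and lower in others. Hars and Hars2 are each the neighbour of the other, so the 10 cases are not all distinct pairs. Kars averaged 22.4 ± 1.81 TPM (SD, n = 3) and Terf2ip, a telomere protein gene 75 bases away, 2.27 ± 0.0802. Sars2 averaged 2.02 ± 0.0252 TPM and Mrps12, a mitochondrial ribosomal protein gene 172 bases away, 16.8 ± 2.46. Hars and Hars2, which start 197 bases apart, averaged 13.3 ± 1.73 and 3.27 ± 0.330 TPM.

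The 3 libraries were then compared with each other for each member. To set them on a common scale, TPM was divided by TMM factors, which assume that most genes do not differ. The median SD of log2(scaled TPM + 1) was 0.13 for the 32 members at a mean of 1 TPM or more, with 0.13 for cytosolic and 0.14 for mitochondrial genes. Over protein-coding genes at that level it was 0.14.

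Among members at a mean of 1 TPM or more, those with the largest spread were Sars, Tars2, Fars2 and Hars. Sars had 36.5, 43.1 and 31.2 scaled TPM in replicates 1, 2 and 3, an SD of 0.23. Tars2 had 3.93, 5.63 and 4.63, an SD of 0.21, and Fars2 had 7.62, 10.2 and 7.93, an SD of 0.20. Hars, for histidine, had 11.5, 13.0 and 15.5, an SD of 0.20. The steadiest of these 32 were Rars, with 20.7, 20.0 and 20.3 scaled TPM and an SD of 0.02, and Iars2, with 5.11, 5.14 and 5.39 and an SD of 0.04. Sars was lowest in replicate 3 and Hars highest there, so the members did not move as 1 block.

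Of the 38 members, 28 departed from counting noise between libraries at an adjusted p under 0.05 by edgeR's likelihood ratio test with dispersion 0 and Benjamini-Hochberg adjustment over 12372 genes. The same test called 71.1% of all genes tested, so with the filter on low counts the members' count is near the background. They were 20 of 21 cytosolic genes, all but Farsa, and 8 of 17 mitochondrial genes. Mitochondrial genes also had fewer counts, and the part of depth in this difference was not tested. Without replicate 2, and likewise without replicate 3, the count over all members was 17, or 44.7%, and the share of all genes tested fell too, to 53.4% and 51.6%. With no filter on low counts 26 members (68.4%) were called, beside 49.4% of 21794 genes tested, so the nearness depended on the filter.

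Which library was lowest depended on the scaling. With TMM factors 26 of 38 members (68.4%) were lowest in replicate 1, beside 46.3% of protein-coding genes at a mean of 1 TPM or more. With TPM as deposited 4 members (10.5%) were, beside 17.4% of those genes. On that scale 20 members (52.6%) were lowest in replicate 3, beside 33.4%. The background thus changed with the scaling too. No direction between libraries is therefore given for the family as a whole.

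The 12 genes listed for the amino acid response were less dependent on scaling. Of these, 9 (75.0%) were lowest in replicate 3 under each of the 5 scalings tried, where 21.6% to 34.3% of protein-coding genes at a mean of 1 TPM or more were. The list was chosen with earlier results of these data known, and the 5 scalings use the same 3 libraries. The comparison with the background is therefore a description only. Beyond counting noise 10 of 12 differed, beside 71.1% of all genes tested. Asns, which makes asparagine, had 10.2, 10.7 and 4.38 TPM as deposited. Trib3, a pseudokinase induced by stress, had 7.70, 8.10 and 3.65 TPM, and Atf4 itself had 110.1, 94.1 and 70.1 TPM. Ddit3 was given above. Replicate 3 was thus the low library for 9 of the 12 genes. Of these 9, Slc3a2 differed by only 1.12-fold in scaled TPM. Psat1, at 2.61, 2.60 and 2.94 TPM as deposited, was highest in replicate 3, and Slc7a11 and Slc7a5 were not lowest there.

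With TMM factors, 8 of 21 cytosolic synthetases (38.1%) had their lowest value in replicate 3 and 12 had it in replicate 1, where 30.6% and 46.3% of protein-coding genes at a mean of 1 TPM or more did. With TMM factors the share in replicate 3 is near that background. It depended on the scaling, at 61.9% beside 33.4% with TPM as deposited and 47.6% beside 34.3% with RLE factors in place of TMM factors. With TPM rescaled over protein-coding genes it was 28.6% beside 21.6%, and in the second quantification 52.4% beside 33.2%. Aars had 30.7, 33.3 and 27.0 scaled TPM, Gars 19.2, 21.7 and 18.1, Wars 21.3, 19.1 and 16.9 and Cars 24.2, 20.4 and 18.2. Another 6, Hars, Vars, Lars, Yars, Dars and Farsa, had their highest there, with Vars at 5.21, 6.03 and 6.78 scaled TPM. In the same library S100a9, a neutrophil marker, was highest at 3.84, 5.56 and 9.97 TPM. The neutrophil markers S100a8 and Ngp were also highest there. Camp and Mpo were highest in replicate 1, Elane in replicate 2, and Ly6g was not seen. Of the macrophage markers, Csf1r, Adgre1, Cd14 and C1qa were highest in replicate 3 as well, and the others were not. The part of cell mixture in these differences was not tested.

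**Figure D4:**
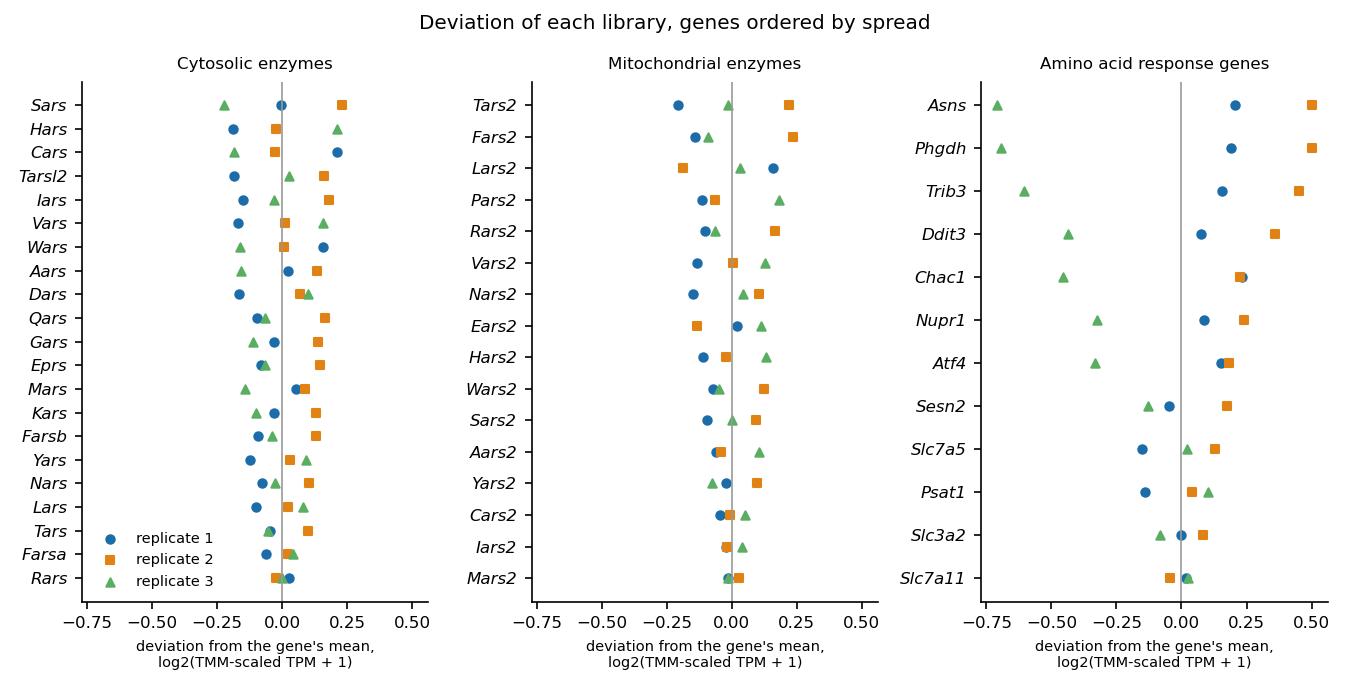
Deviation of each library from the gene's mean, in log2(TMM-scaled TPM + 1), for 21 cytosolic enzymes, 16 mitochondrial enzymes and the 12 amino acid response genes, ordered by spread with 1 symbol per library. Asns spreads most widely on the right with an SD of 0.63, and the synthetases stay within SDs of 0.02 to 0.23.

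The letters TGATGNAA, which are those of the C/EBP-ATF response element bound by ATF4, were looked for on both strands of the promoters, because ATF4 targets and some synthetases differed between libraries. RefSeq promoters of GRCm38.p6, from 250 bases before to 50 after a start, matched 28 of 38 members, 14 of each compartment. The remaining members were not searched, so a gene not named below may lack the letters or lack a promoter to search. The letters were present in 5 of 14 cytosolic genes, namely Aars, Gars, Iars, Tars and Yars, and in 0 of 14 mitochondrial genes. They occur in 3.97% of 32851 RefSeq promoters, and in a promoter of 2.83% of 7481 genes expressed at a mean of 1 TPM or more. A match is a description of the letters and not a bound site. The windows that hold them are shown 5′ to 3′ on the gene's strand with the match in capitals, read on either strand.
Aars, chr8:111033670-111033797, plus strand: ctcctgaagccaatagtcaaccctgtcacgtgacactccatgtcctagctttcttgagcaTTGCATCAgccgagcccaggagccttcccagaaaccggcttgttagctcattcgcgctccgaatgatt
Aars, chr8:111033840-111033869, plus strand: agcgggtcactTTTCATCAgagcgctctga
Gars, chr6:55037911-55038000, plus strand: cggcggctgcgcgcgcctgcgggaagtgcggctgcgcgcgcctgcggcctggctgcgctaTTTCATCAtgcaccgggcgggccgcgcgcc
Tars, chr15:11399659-11399733, minus strand: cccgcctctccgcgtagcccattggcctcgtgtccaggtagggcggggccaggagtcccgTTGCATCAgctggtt
Iars, chr13:49682126-49682155, plus strand: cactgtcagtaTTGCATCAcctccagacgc
Yars, chr4:129189895-129189924, plus strand: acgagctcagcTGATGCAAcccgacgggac

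In Gars and Tars these matches lie before the start, in Iars and Yars just after it, and Aars has 1 on each side. The 5 genes did not share 1 order of libraries. With TMM factors Aars, Gars and Tars had their lowest scaled TPM in replicate 3, Tars at 6.83, 7.65 and 6.78. Iars, at 6.01, 7.82 and 6.62, and Yars, at 7.38, 8.32 and 8.73, were lowest in replicate 1. With TPM as deposited, Iars at 6.63, 7.20 and 6.52 was lowest in replicate 3, like Aars, Gars and Tars. Yars at 8.14, 7.66 and 8.59 was then lowest in replicate 2, so the order depended on the scaling. 3 other motifs were searched on both strands in the same 28 members. The interferon-stimulated response element (GAAA, any 2 bases, GAAA) was in 1 of them, Qars, against 3.44% of promoters and 4.26% of 7481 expressed genes. The E-box CACGTG was in 5 members (Aars, Ears2, Farsb, Iars and Tars) against 7.15% and 12.6%, and the cyclic AMP element TGACGTCA was in 0 members against 1.79% and 3.82%.

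Genes that work beside the synthetases were measured as well. Counts below of those that departed from counting noise stand beside 71.1% of all genes tested. The lists were not tested against that share. Of the 3 scaffolds of the multi-synthetase complex, Aimp1 had 12.9, 12.3 and 12.3 TPM, Aimp2 had 2.72, 2.48 and 1.94 TPM and Eef1e1 had 2.67, 2.54 and 2.64 TPM, and 1 of 3 departed from counting noise. Eef1a1, which carries charged tRNA to the cytosolic ribosome, had 959, 1007 and 878 TPM. Eef1b2, Eef1d and Eef1g, its exchange factor subunits, averaged 75.0, 30.4 and 68.9 TPM, and 4 of 4 departed. The delivery factor was thus far above every synthetase.

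In mitochondria glutaminyl-tRNA is made by another route, in which an amidotransferase converts a mischarged tRNA. Its subunits Gatb, Gatc and Qrsl1 averaged 2.51, 7.15 and 2.16 TPM. Mtfmt, which formylates the initiator methionyl-tRNA, averaged 1.80 TPM, and the elongation factors Tufm and Tsfm averaged 12.3 and 3.84 TPM. All 6 were at 1 TPM or more in every library, beside 41.3% of protein-coding genes. Of them 3 departed from counting noise, beside 71.1% of all genes tested. In TPM, which divides by the long Mars2 transcript, Mtfmt stood above Mars2, the enzyme that supplies its substrate, in every library.

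Of 5 genes for proofreading and tRNA ends, 4 were at 1 TPM or more in every library and 4 departed from counting noise. Trnt1, which adds the CCA end that all synthetases need, had 13.4, 9.16 and 10.8 TPM. The editing factors Prorsd1, Dtd2, Aarsd1 and Dtd1 averaged 9.64, 4.42, 3.97 and 1.11 TPM. Pstk and Sepsecs, which make selenocysteinyl-tRNA from seryl-tRNA, averaged 3.89 and 1.66 TPM, and neither departed from counting noise.

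A second set of transcript tables, quantified directly from the reads, was summed per gene and compared with the first after both were rescaled over protein-coding genes. The median log2 ratio of second over first was -0.02 ± 0.02 (SD, n = 3), and 35 of 38 members, all but Lars2, Nars2 and Vars2, lay within 1.2-fold on average. Lars2, the mitochondrial leucine enzyme (chromosome 9, 123366927 to 123462666, plus strand), differed most. Its mean was 11.5 coding-scaled TPM in the first and 51.0 in the second, a log2 ratio of 2.10 ± 0.29. It was the 1 of 37 members tested that differed 2-fold or more in every library, where 2.29% of protein-coding genes did.

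The Lars2 difference was in particular transcripts. The first tables gave 95.3% of its TPM to Lars2-201, a protein_coding transcript of 3894 nt. The second gave 44.7% to it, 34.4% to Lars2-205, a retained_intron transcript of 889 nt, and 19.6% to Lars2-209, of type nonsense_mediated_decay. The next largest ratios at a mean of 1 TPM or more were 0.29 for Vars2 and -0.23 for Mars. For Iars the gene totals hardly differed, at a log2 ratio of 0.02, but the first tables put 97.3% on Iars-206 and the second 90.3% on Iars-201, both protein_coding.

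**Figure D5:**
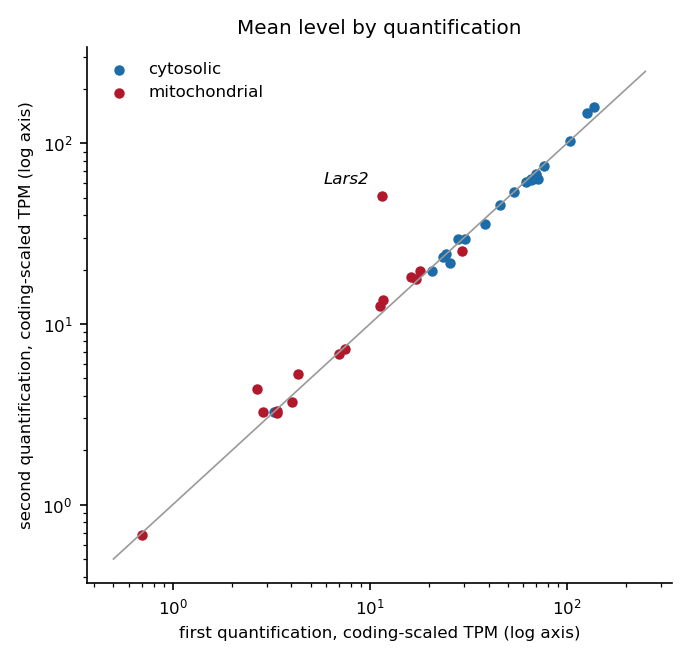
Mean coding-scaled TPM of 37 synthetase genes in the second against the first quantification, both on log axes, with cytosolic genes in blue, mitochondrial genes in red and a line of equality. Lars2 lies farthest above the line, at 51.0 against 11.5.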

How the data were processed

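The members and gene lists were chosen with earlier results of these data known. Total RNA-seq libraries of the macrophage cytosolic fraction (1 group, n = 3) were used. The authors made the tables on mm10 with annotation M21, per the text deposited with them. Per the file headers, the gene and first transcript tables have the RSEM layout and the second transcript table the kallisto layout. Programs, versions and strand were not given in the sources used here. Deposited gene tables give expected counts (estimated reads per gene, which need not be whole) and TPM. The deposited transcript tables also give each transcript's percent of its gene's abundance.

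All 55536 gene identifiers matched GENCODE M21. Medians and differences used log2(TPM + 1) per library. Expected counts were rounded and tested with edgeR 4.0.16 in R 4.3.3 (TMM, filterByExpr, likelihood ratio test with dispersion 0), since 1 group leaves no contrast for its quasi-likelihood test. The step was tested on simulated data. Other steps used Python 3.11.15, numpy 2.4.6 and pandas 2.3.3. Members named in full were the 4 highest and 2 lowest of each compartment, the 4 with the largest and 2 with the smallest spread, the 3 with the largest ratio between quantifications, the pairs with the 3 largest and 3 smallest differences, members under 50% on protein-coding transcripts (1 item is not reported here), Wars, Gars, Kars, Eprs, Farsa and Farsb. Alternatives were the pseudocount, scaling, filter, threshold, quantification and leaving out each library. SDs measure the spread between these samples, which may be technical. The edgeR p-values set the differences between libraries against counting error alone, which is set by the depth. The sign-flip p-values rest on 3 library values and cannot fall below 0.25.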

Additional observations from a re-analysis of the deposited data

How the results depend on the processing

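The cytosolic minus mitochondrial difference of medians, 2.51, kept its sign under every alternative run: 2.92 with a pseudocount of 0.1, 2.16 with the second quantification, 2.85 with CPM, 2.82 with TPM rescaled over protein-coding genes, 2.39 without Gars and Kars, 2.14 over members at a mean of 1 TPM or more and 2.19 with means. Leaving out 1 library gave 2.49 to 2.54. The pairs higher in the cytosol ranged from 16 to 18 of 18. For single pairs, Lars minus Lars2 reversed to -0.40 with the second quantification, and Farsa minus Fars2 to -0.02 without replicate 3 (up to 0.15 with another library left out, 0.17 in the second quantification, 0.98 with CPM and 0.93 on protein-coding transcripts). Members that departed from counting noise numbered 17 to 20 when 1 library was left out, and the share of all genes tested was 51.6% to 53.4% in those fits. With no filter on low counts they numbered 26 (68.4%), beside 49.4% of all genes tested. Members at 1 TPM or more numbered 37 with rescaled TPM and 28 in the second quantification, against 31. The median spread was 0.08 to 0.12 with 1 library left out. The median share on protein-coding transcripts, 94.8% averaged over libraries, was 91.6% in the second quantification. Of the 38 member levels, 8 moved beyond their SD in the second quantification. The compartments were compared within each library. No pairing of samples between groups was possible because the series has 1 group. Depth limits the low members most, such as Pars2 with 92 counts in replicate 1.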
